A study of Trichoderma atroviride IMI 206040 with 36 samples.

Results

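Transcript levels of 4 genes of sulfate assimilation and serine metabolism were followed in *Trichoderma atroviride*, a soil fungus that conidiates after a pulse of blue light. The genes were taken by their JGI numbers among the 11863 transcripts of the count table. They were sulfate adenylyltransferase (ID.300938), the beta subunit of sulfite reductase (ID.128510), phosphoserine phosphatase (ID.219497) and serine hydroxymethyltransferase (SHMT, ID.300337), and are given below by the locus tags with the same numbers. The study itself chose these genes on the same libraries, for a fall after light in Δenv-1 relative to its other strains. Their direction after light in Δenv-1, and in comparisons of its light response or light level with other strains, is therefore not independent evidence. Colonies of strain IMI 206040 grew for 36 h on cellophane laid over PDA medium, and mycelium was frozen 30 min after a pulse of blue light with a dose of 200 μmol m−2 (light) or was never illuminated (darkness). The groups were Δenv-1, in which the hph marker replaced the reading frame of the photoreceptor gene env-1, Δblr-1 and Δblr-2, which lack a component of the BLR blue light receptor complex, and the parental WT, each with 3 light and 3 dark libraries. The Δenv-1 strain was 1 replacement transformant purified by single spore isolation, and Δblr-2 was sequenced but set aside by the study. The third Δenv-1 dark library was left out by the authors for its larger variation, so 23 libraries were fitted, and its values are given where they bear on a result. How Δblr-1 and Δblr-2 were built, and the Ids of the deleted genes, are not given in the sources used here.

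In fungi, sulfate taken up by the cell is activated to adenylyl sulfate by sulfate adenylyltransferase, also called ATP sulfurylase, phosphorylated, reduced to sulfite, and reduced further to sulfide by sulfite reductase. Sulfide is then built into cysteine or homocysteine on a carbon skeleton that derives from serine or homoserine. Phosphoserine phosphatase releases serine from phosphoserine, the last step of serine synthesis from a glycolytic intermediate, and SHMT converts serine and tetrahydrofolate into glycine and a methylene group for one-carbon metabolism. The 4 genes thus stand for the first and the last step from sulfate to sulfide, and for a step that makes and a step that uses serine.

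Levels are given in CPM, the count of a transcript relative to the library total scaled by TMM, and not divided by transcript length, so levels are compared between libraries and not between genes. Library totals ranged from 1519260 to 22011847 counts over the 24 libraries. All 4 genes passed the filter on low counts with 9605 genes tested, and the lowest count of any of them in a fitted library was 157, for phosphoserine phosphatase in Δblr-1 light replicate 1, the shallowest library. The transcript of the deleted env-1 (TRIATDRAFT_150699) was at 257, 240.1 and 283 CPM in Δenv-1 light and at 32.3, 32.4 and, in the library left out, 39.7 CPM in Δenv-1 darkness, against 106 to 109 CPM in WT light and 1.73 to 2.06 CPM in WT darkness. According to the study, reads of this transcript in Δenv-1 fell in its untranslated end after the reading frame, outside the replaced part, and the replacement itself was checked by PCR and Southern blot. The transcript level therefore does not check the deletion. Light labels were set beside known light genes. The induced gene blu-1 (TRIATDRAFT_300570) stood between 1032 and 1191 CPM in Δenv-1 light, between 4.15 and 7.83 CPM in Δblr-1 light, between 67.3 and 144 CPM in Δblr-2 light and between 543 and 769 CPM in WT light, and at or under 10.01 CPM in every dark library. The Δblr-2 libraries thus kept a rise of blu-1 after light, whereas env-1 was at 0.44 to 1.07 CPM in Δblr-2 light and 0.803 to 1.33 CPM in Δblr-2 darkness (log2 ratio -0.63, edgeR adjusted p = 0.169). In Δblr-1 the dark libraries had 2.77 to 3.88 CPM of blu-1 (log2 ratio 0.61, edgeR adjusted p = 0.66). The light-repressed gene bld-2 (TRIATDRAFT_301399) was at 1099.5 to 1145 CPM in Δenv-1 light, against 2731 and 2794 CPM in darkness and 2415 CPM in the library left out, and at 1338 to 1703 CPM in Δblr-2 light, against 1939 to 2297 CPM in darkness. WT libraries had 576 to 899.8 CPM of it in light, against 1974 to 2819 CPM in darkness. In Δblr-1 it was at 2541 to 3186 CPM in light, against 2824 to 3460.2 CPM in darkness (log2 ratio -0.12, edgeR adjusted p = 0.864). Neither gene passed the test in Δblr-1, so its treatment labels are taken as given. The hydrophobin gene TRIATDRAFT_258295, a marker of conidiation, was at 374, 9.84 and, in the library left out, 537 CPM in the Δenv-1 dark libraries, and at 6.43, 6.38 and 19.7 CPM in Δenv-1 light. In WT it was at 103, 14.1 and 175 CPM in light and at 79.1, 32.8 and 244 CPM in darkness. The other markers of the list, alb-1 (TRIATDRAFT_217154) and cmp-1 (TRIATDRAFT_323283), were likewise lowest in replicate 2 of Δenv-1 darkness and of both WT groups. Their part in the levels of the 4 genes was not tested, and the values of the libraries concerned are given with each gene.

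In the data, 3 light responses passed the test under every alternative tried, in different mutants. SHMT was lower after light in Δenv-1, at 0.76 times its dark level, where 4.83% of all genes passed. Sulfite reductase was lower after light in Δblr-2, at 0.54 times its dark level. Phosphoserine phosphatase was higher there at 1.27 times, but its level is uncertain for a reason given with it, which no alternative addressed. Of all genes, 38.4% passed in Δblr-2, 17.6% as lower and 20.8% as higher. In these whole-mycelium samples, fewer cells of a type and less RNA per cell cannot be told apart. In WT and in Δblr-1 none of the 4 genes changed by the test. No member reached a log2 fold change of 1 in either direction in any strain or comparison. The plot of levels by library shows each gene over the 8 groups.

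**Figure D1:**
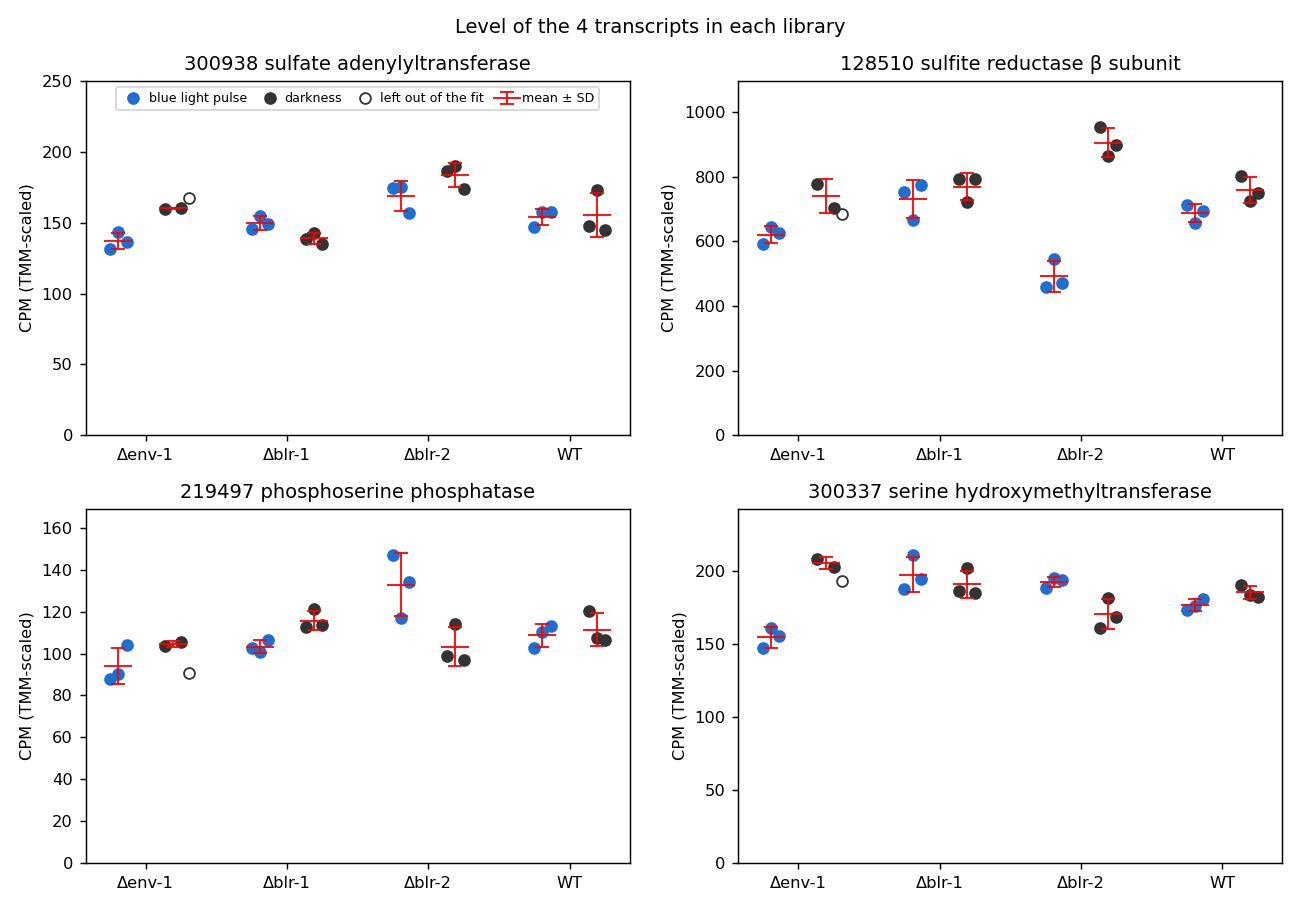
CPM (TMM-scaled, linear axis from 0) of each transcript in every library, with blue light libraries left of dark libraries within each strain. Filled points are fitted libraries, the open point is the Δenv-1 dark library left out of the fit, and red bars are the mean ± SD of the fitted libraries. SHMT has its lowest mean in Δenv-1 light (147 to 161 CPM), which narrowly overlaps Δblr-2 darkness, whose lowest library is at 161 CPM. Sulfite reductase in Δblr-2 spans the lowest (458 CPM) and the highest (953 CPM) value of that gene.

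Sulfate adenylyltransferase (TRIATDRAFT_300938), which activates sulfate, was the member whose light response passed in no strain. In Δenv-1 it stood at 132, 143 and 136 CPM in light, against 159.8 and 160.4 CPM in darkness and 167 CPM in the dark library left out. All light libraries were thus below all dark libraries, but the log2 fold change of -0.22 (standard error, SE, 0.073) did not pass the edgeR quasi-likelihood test (adjusted p = 0.1). With the third dark library included it did, at -0.25 (edgeR adjusted p = 0.00718). In Δblr-1 it was at 146, 155 and 149 CPM in light, against 139, 143 and 135 CPM in darkness. These groups did not overlap either, with the light libraries higher, and the log2 fold change was 0.11 (SE 0.068, edgeR adjusted p = 0.563). In Δblr-2 it was at 175, 175 and 157 CPM in light, against 187, 190.2 and 174 CPM in darkness, with overlap and a log2 fold change of -0.13 (SE 0.066, edgeR adjusted p = 0.14). In WT it was at 147, 157 and 157 CPM in light, against 148, 173 and 145 CPM in darkness, and the log2 fold change was -0.01 (95% interval -0.15 to 0.12). Over the 23 libraries the level ranged 1.44-fold, and the highest groups were Δblr-2 in darkness and Δblr-2 in light.

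The beta subunit of sulfite reductase (TRIATDRAFT_128510), the enzyme that reduces sulfite to sulfide, moved most. In Δblr-2 it stood at 458, 547 and 472 CPM in light, against 953, 864 and 898 CPM in darkness. The groups were far apart, and the gene fell by 0.89 on the log2 scale (SE 0.076, edgeR adjusted p = 1.15e-08), to 0.54 times its dark level (95% interval 0.48 to 0.60). Of all genes tested in Δblr-2, 3.01% had a lower log2 fold change. In Δenv-1 it was at 593, 644 and 625 CPM in light, against 778 and 704 CPM in darkness and 686 CPM in the dark library left out. The light libraries were lower without overlap, and the log2 fold change was -0.25 (SE 0.084, edgeR adjusted p = 0.1). In Δblr-1 it was at 754, 666 and 775 CPM in light, against 794, 721 and 792 CPM in darkness, with a log2 fold change of -0.08 (SE 0.076, edgeR adjusted p = 0.78). In WT it was at 713, 657 and 694 CPM in light, against 803, 724 and 750.1 CPM in darkness. The WT light libraries were lower without overlap, by a log2 fold change of -0.14 that did not pass (SE 0.076, edgeR adjusted p = 0.333). Δblr-2 darkness was the highest group of this gene, and Δblr-2 light the lowest, each without overlap with its neighbour in the order of the groups.

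Phosphoserine phosphatase (TRIATDRAFT_219497) was the only member whose estimated counts were not whole numbers. They were not whole in any of the 24 libraries, whereas those of the other members were whole in all 24. Of all other transcripts, 1 gave whole sums with it in every library, gene TRIATDRAFT_256720, within 0.04 counts at most; the next best transcript missed by 0.35. In the gene order of the reference assembly of strain P1 (RefSeq), gene TRIATDRAFT_256720 is the direct neighbour of TRIATDRAFT_219497. Some reads were therefore shared out between both transcripts by the estimate, and the level of TRIATDRAFT_219497 is uncertain to an extent that the table does not show. Gene TRIATDRAFT_256720 itself was at 374, 393 and 394 CPM in Δblr-2 light, against 427, 411 and 409 CPM in Δblr-2 darkness. The log2 fold change was -0.11 (in edgeR, adjusted p = 0.242), and no light response of it passed in any strain. On the CPM scale its Δblr-2 mean was lower in light than in darkness, at 386.8 against 415.7. That of TRIATDRAFT_219497 was higher by a like amount, at 132.8 against 103.2. Whether the split of shared reads made part of this difference was not tested.

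As estimated, phosphoserine phosphatase rose in Δblr-2. It stood at 147, 117 and 134 CPM in light, against 98.8, 114 and 96.8 CPM in darkness, without overlap. The log2 fold change was 0.35 (SE 0.084, edgeR adjusted p = 0.00265), or 1.27 times the dark level (95% interval 1.13 to 1.43). In Δenv-1 it was at 88.1, 90.1 and 103.9 CPM in light, against 103.6 and 106 CPM in darkness and 90.8 CPM in the dark library left out. These groups overlapped, and the log2 fold change of -0.15 did not pass (SE 0.093, edgeR adjusted p = 0.474). In Δblr-1 it was at 102, 101 and 107 CPM in light, against 113, 121 and 113 CPM in darkness. The light libraries were lower without overlap, and the log2 fold change was -0.17 (SE 0.087, edgeR adjusted p = 0.446). In WT it was at 103, 111 and 113 CPM in light, against 120.4, 107 and 107 CPM in darkness, with overlap and a log2 fold change of -0.04 (95% interval -0.21 to 0.14). Its groups in the order of their means overlapped with each next group throughout.

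SHMT (TRIATDRAFT_300337), which draws on serine for glycine and one-carbon units, was the gene that fell in Δenv-1. It stood at 147, 161 and 155 CPM in light, against 208 and 203 CPM in darkness and 193 CPM in the dark library left out. Both the dark library with high conidiation markers (replicate 1, 208 CPM) and the one with low markers (replicate 2, 203 CPM) lay above every light library. The log2 fold change was -0.40 (SE 0.063, edgeR adjusted p = 0.000235), and the ratio was 0.76 (95% interval 0.69 to 0.83). With the third dark library included the gene fell too, and over all alternatives the log2 fold change lay between -0.43 and -0.32, with an edgeR or DESeq2 adjusted p of at most 0.00907. Of all genes tested in Δenv-1, 6.18% had a lower log2 fold change. In Δblr-2 the gene moved the other way, with 189, 195 and 194 CPM in light, against 161, 181 and 168 CPM in darkness. It rose there by 0.16 on the log2 scale (SE 0.058, edgeR adjusted p = 0.0314). This rise did not pass with library totals as the only scaling or with Δblr-2 fitted alone. Nor did it pass when any of 4 of the 6 Δblr-2 libraries (light replicates 2 and 3, dark replicates 1 and 3) was left out. The edgeR adjusted p reached 0.159 in these fits. In Δblr-1 it was at 187, 211 and 194 CPM in light, against 186, 202 and 185 CPM in darkness, a log2 fold change of 0.05 (95% interval -0.07 to 0.18). In WT it was at 173, 176 and 181 CPM in light, against 190.4, 184 and 182 CPM in darkness. The WT light libraries were narrowly lower without overlap, and the log2 fold change of -0.07 did not pass (SE 0.058, edgeR adjusted p = 0.583).

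Counted by strain, 1 of the 4 members passed the adjusted p of 0.05 in Δenv-1 (lower), where 4.83% of all genes tested did and 2% did so as lower. In Δblr-2, 3 members passed (1 lower, 2 higher), where 38.4% of all genes did, 17.6% lower and 20.8% higher. No member passed in Δblr-1, where 1.2% of all genes did, or in WT, where 6.81% did. In these 2 strains no member had an unadjusted p under 0.05 by edgeR's quasi-likelihood test, nor did any pass by edgeR's likelihood ratio test or by DESeq2. With the log2 fold change minimum of 1 added, no member was called in any strain by any of these tools, against 1.28% of all genes in Δenv-1, 0.198% in Δblr-1, 7.37% in Δblr-2 and 1.28% in WT by the quasi-likelihood test. All 4 log2 fold changes were below 0 in Δenv-1, with a median of -0.23 (all genes 0.00), and in WT, with a median of -0.05 (all genes 0.00). In Δblr-1 and in Δblr-2, 2 were below and 2 above 0.

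The light libraries lay wholly below the dark libraries in 3 members in Δenv-1, where 18.6% of all genes did, with 2 dark libraries, and it was the same 3 members with the third. In Δblr-1 this held for 1 member (8.68% of all genes), with 1 member wholly above (8.81%). In Δblr-2 it held for 1 member (24%), with 2 wholly above (27.7%), and in WT for 2 members (9.37%). The plot of light responses gives these values with their intervals.

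**Figure D2:**
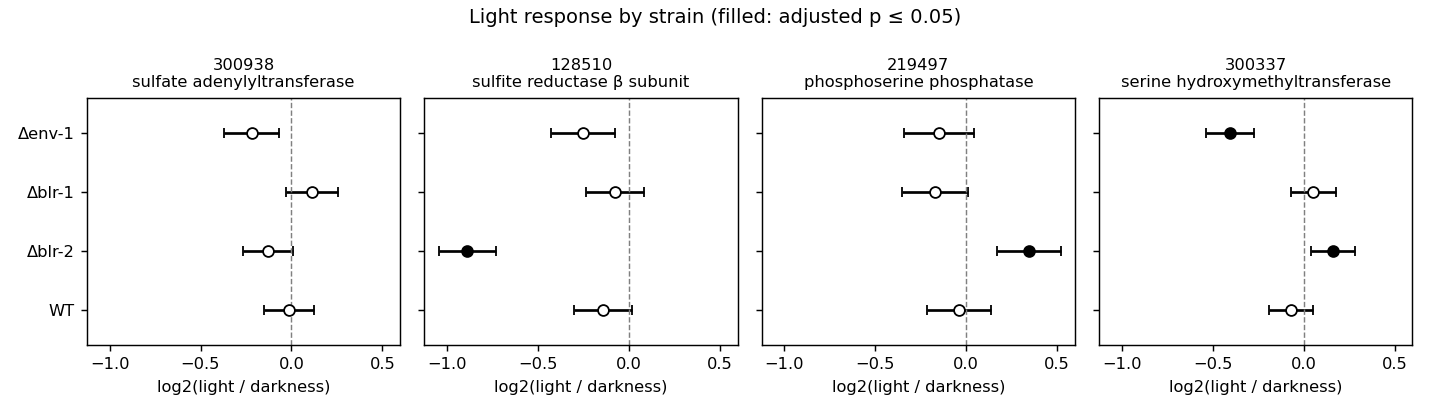
Log2 ratio of light to darkness of each transcript in Δenv-1, Δblr-1, Δblr-2 and WT, from the edgeR fit of 23 libraries; bars are 95% intervals and filled points have an adjusted p of at most 0.05 over 9605 genes. The filled points are SHMT in Δenv-1 (-0.40) and, in Δblr-2, sulfite reductase (-0.89), phosphoserine phosphatase (0.35) and SHMT (0.16), and no WT or Δblr-1 point is filled.

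Responses to light were compared between strains through interaction terms of the model. Between Δenv-1 and WT no member passed, where 0.0208% of all genes (2 genes) did and 406 genes had an unadjusted p under 0.05, and none passed by DESeq2. The SHMT responses differed most, by -0.33 on the log2 scale (95% interval -0.51 to -0.16, unadjusted p = 0.000863 and adjusted p = 0.829 in edgeR's test). The differences for the other members were -0.20 for sulfate adenylyltransferase, -0.11 for sulfite reductase and -0.11 for phosphoserine phosphatase, each with an interval that included 0. A fall of SHMT particular to Δenv-1 was thus not called against WT, although the gene passed in Δenv-1 and not in WT. No member passed for the difference between Δblr-1 and WT either, where 1.38% of all genes did. The differences there ran from -0.13 for phosphoserine phosphatase to 0.13 for sulfate adenylyltransferase, no member had an unadjusted p under 0.05, and none passed by DESeq2.

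The Δblr-2 response differed from that of WT in 2 members, where 19.5% of all genes did. Sulfite reductase differed by -0.75 (SE 0.11, edgeR adjusted p = 3.62e-05), in every alternative tried. Phosphoserine phosphatase differed by 0.38 (SE 0.12, edgeR adjusted p = 0.0275), and lost the call under 9 of 34 alternatives. These were library totals as the only scaling, the 2 strains fitted alone, the replicate block with the third Δenv-1 dark library, and the fits without WT light or dark replicate 1, without Δblr-2 light replicate 1 or 3 or without Δblr-2 dark replicate 1 or 3, with adjusted p up to 0.0914. SHMT stood at the threshold, with a difference of 0.23 (SE 0.081, edgeR adjusted p = 0.0505). It was called under 11 of the 34 alternatives, the replicate block and DESeq2 among them.

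The mutants were also set against each other, a comparison added after the data had been seen. Because the study chose the genes for a fall after light in Δenv-1 relative to its other strains, the comparisons with Δenv-1 are not independent of that choice. SHMT responded lower in Δenv-1 than in Δblr-1, by -0.46 (SE 0.086, edgeR adjusted p = 0.00374), the 1 member called where 1.46% of all genes were. With library totals as the only scaling, which moved the median over all genes in this comparison to 0.10, the call was lost (edgeR adjusted p = 0.0761). With the third Δenv-1 dark library sulfate adenylyltransferase was called too. Between Δenv-1 and Δblr-2, 3 members were called, where 20.2% of all genes were. SHMT differed by -0.56 (edgeR adjusted p = 6.34e-05), phosphoserine phosphatase by -0.49 (edgeR adjusted p = 0.00732) and sulfite reductase by 0.64 (edgeR adjusted p = 0.000379), so the SHMT and sulfite reductase responses of these mutants differed in opposite directions. The phosphoserine phosphatase call was lost with library totals as the only scaling (edgeR adjusted p = 0.0633), which moved the median over all genes in this comparison to 0.13. Between Δblr-2 and Δblr-1, 2 members were called, where 15.7% of all genes were, sulfite reductase with -0.81 (edgeR adjusted p = 1.81e-05) and phosphoserine phosphatase with 0.52 (edgeR adjusted p = 0.00534). These comparisons share light and dark libraries with the ones against WT and with each other.

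**Figure D3:**
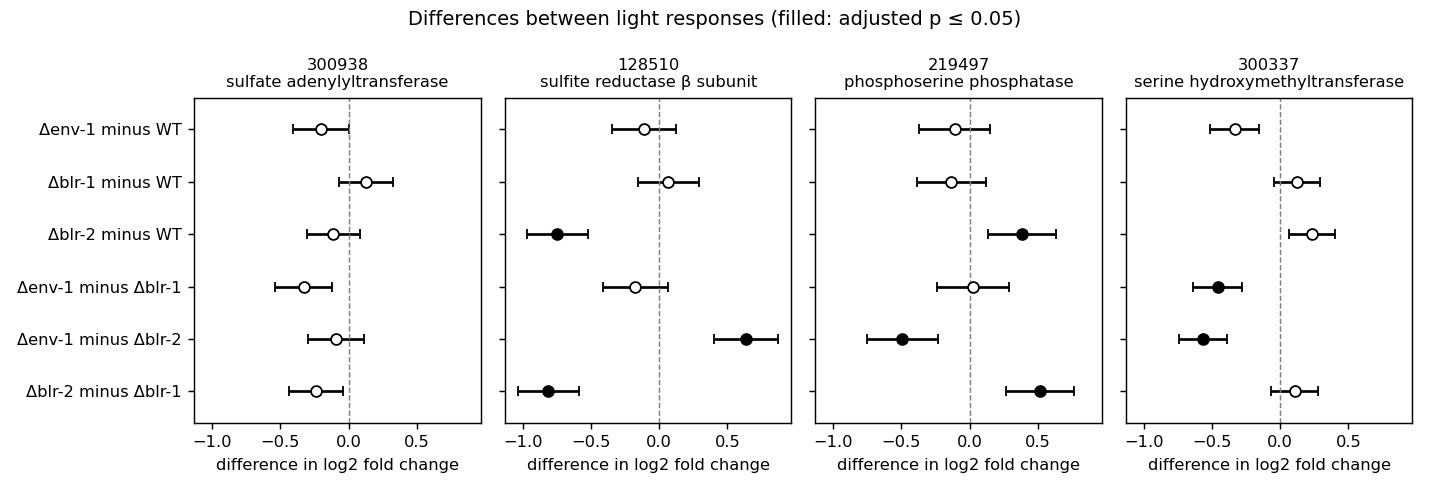
Difference between the light responses of pairs of strains for each transcript, in log2 units, with 95% intervals; filled points have an edgeR adjusted p of at most 0.05. The row of Δenv-1 minus WT holds no filled point, whereas SHMT is filled for Δenv-1 minus Δblr-1 (-0.46) and minus Δblr-2 (-0.56), and sulfite reductase in all 3 rows that involve Δblr-2.

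Mutants were next compared with WT under the same treatment, which asks how the level in each mutant stood to that of WT. With the fold change minimum no member was called, against 1.54% of all genes in darkness and 3.52% in light for Δenv-1, 2.26% and 4.98% for Δblr-1, and 4.2% and 12.6% for Δblr-2. In darkness Δenv-1 differed from WT in none of the members, where 4.5% of all genes did. SHMT had the lowest unadjusted p (0.0392), with 208 and 203 CPM in Δenv-1 against 190.4, 184 and 182 CPM in WT and a log2 ratio of 0.14 (edgeR adjusted p = 0.251); none passed by DESeq2. In light SHMT was lower in Δenv-1, the 1 member to pass where 15.5% of all genes did and 8.81% did so as lower. It was at 147, 161 and 155 CPM against 173, 176 and 181 CPM in WT, and the log2 ratio was -0.19 (SE 0.057, edgeR adjusted p = 0.0253). SHMT did not pass under 6 alternatives, at edgeR adjusted p up to 0.115. They were the fits without WT light replicate 1 or 3 and without Δenv-1 light replicate 1 or 3. The others had the 2 strains fitted alone and library totals only. All 4 log2 ratios were below 0 there, with a median of -0.18, and 3 members lay wholly below WT, as 14.7% of all genes did. These counts too are not independent of the choice of the genes by their levels after light in Δenv-1. Sulfate adenylyltransferase (log2 ratio -0.17, edgeR adjusted p = 0.0909) and phosphoserine phosphatase (log2 ratio -0.21, edgeR adjusted p = 0.0962) did not pass. Sulfate adenylyltransferase did pass with the replicate block (edgeR adjusted p = 0.0347), with the block and the third Δenv-1 dark library, and without WT dark replicate 2 (0.048), and phosphoserine phosphatase without Δenv-1 light replicate 3 (0.0416). The block in this comparison took equal numbers as shared by all strains, and no check was made of such a link.

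Δblr-1 differed from WT in no member in darkness, where 9.59% of all genes differed; sulfate adenylyltransferase had the lowest unadjusted p (0.0269, log2 ratio -0.16, edgeR adjusted p = 0.143), and none passed by DESeq2. In light SHMT was higher in Δblr-1, the 1 member to pass where 25.8% of all genes did and 11.9% did so as higher. It was at 187, 211 and 194 CPM against 173, 176 and 181 CPM in WT, with a log2 ratio of 0.17 (SE 0.058, edgeR adjusted p = 0.0376). SHMT did not pass under 7 alternatives, at edgeR adjusted p up to 0.244. They were the fits without WT light replicate 1 or 3 and without Δblr-1 light replicate 2 or 3. The others had the strains fitted alone, library totals only and no filter on low counts.

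In darkness both sulfur genes were higher in Δblr-2 than in WT, 2 members where 14.7% of all genes passed and 8.31% passed as higher. Sulfate adenylyltransferase was at 187, 190.2 and 174 CPM in Δblr-2, against 148, 173 and 145 CPM in WT, a log2 ratio of 0.24 (SE 0.067, edgeR adjusted p = 0.0167). Sulfite reductase was at 953, 864 and 898 CPM against 803, 724 and 750.1 CPM, a log2 ratio of 0.26 (SE 0.076, edgeR adjusted p = 0.024). Each of the 2 genes failed to pass under 4 alternatives. Those of the first were the fits without WT dark replicate 1 or 3, without Δblr-2 dark replicate 2 and with the strains fitted alone, and those of the second were the fits without WT dark replicate 2 or 3 and without Δblr-2 dark replicate 1 or 3, with adjusted p up to 0.0989 and 0.101. In light, sulfite reductase was lower in Δblr-2 and phosphoserine phosphatase higher, 2 members where 47.5% of all genes passed. The log2 ratio of sulfite reductase was -0.49 (SE 0.076, edgeR adjusted p = 1.97e-05), so the gene stood above WT in darkness and below it after light. That of phosphoserine phosphatase was 0.28 (SE 0.082, edgeR adjusted p = 0.00794), and it did not pass without Δblr-2 light replicate 1 (edgeR adjusted p = 0.0652). Its neighbour TRIATDRAFT_256720 was lower in Δblr-2 than in WT in light, with a log2 ratio of -0.35 (edgeR adjusted p = 0.000457), and in darkness, with -0.39 (edgeR adjusted p = 0.000685), so the transcript that shares reads with it differed the other way in light.

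**Figure D4:**
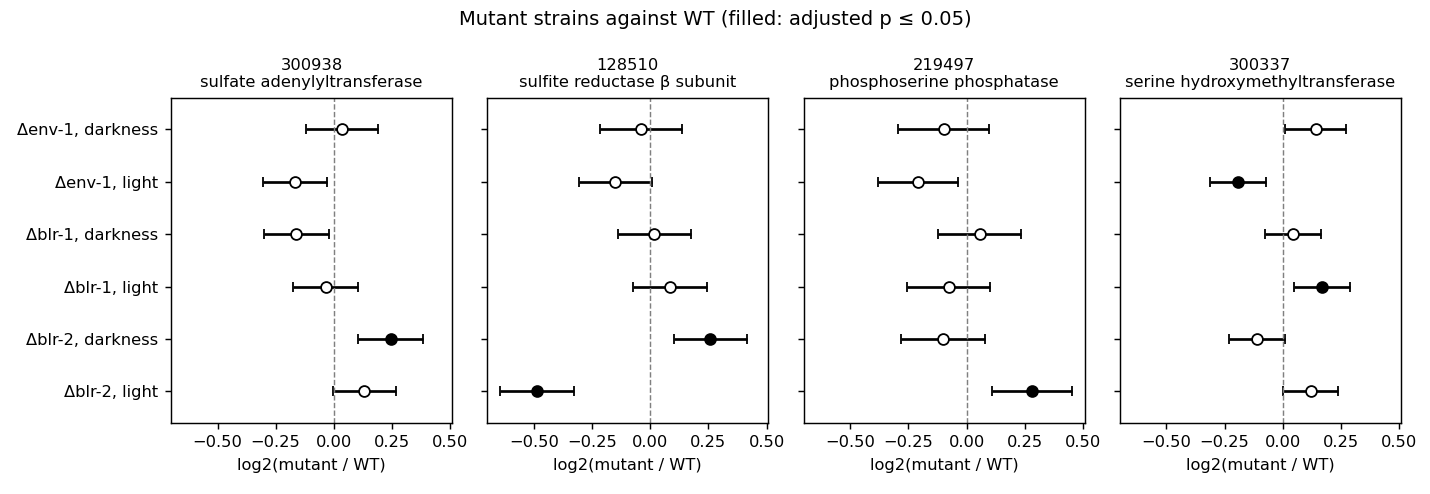
Log2 ratio of each mutant to WT for each transcript, in darkness and in light, with 95% intervals; filled points have an edgeR adjusted p of at most 0.05. SHMT is filled in light below 0 for Δenv-1 (-0.19) and above 0 for Δblr-1 (0.17), and sulfite reductase in Δblr-2 is filled above 0 in darkness (0.26) and below 0 in light (-0.49).

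The 4 levels did not move as a block. Pearson correlations of log2(CPM + 1) between the members over the 23 libraries, given as a description, ran from -0.45 for sulfite reductase and phosphoserine phosphatase to 0.51 for phosphoserine phosphatase and SHMT. Over the 17 libraries without Δblr-2 all 6 were above 0, from 0.15 for the 2 sulfur genes to 0.65 for sulfite reductase with either serine gene, so no negative value was left without the Δblr-2 libraries. These points share strain, treatment and culture. By their JGI numbers, the genes whose levels were most like each member over the 23 libraries were 257866 (r = 0.83), 290350 (r = 0.82, a hypothetical protein) and 280732 (r = 0.82) for sulfate adenylyltransferase. For sulfite reductase they were 299393 (r = 0.93), 303074 (r = 0.89) and 300453 (r = 0.88), for phosphoserine phosphatase 302707 (r = 0.85), 299592 (r = 0.81) and 319832 (r = 0.81), and for SHMT 163577 (r = 0.83), 128976 (r = 0.79) and 147574 (r = 0.77). Other than for 290350, the sources used here give no product name for these Ids, and no member was among the 3 most like another.

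Of other sulfur genes, 2 are named in the sources, and the study chose both on these libraries. Choline-sulfatase (TRIATDRAFT_140398), which frees sulfate from choline sulfate, a sulfur store of fungi, passed as lower after light in 3 of the strains. In Δenv-1 it stood at 40.6, 36.1 and 35.1 CPM in light, against 64.9 and 69.2 CPM in darkness and 73.6 CPM in the dark library left out, a log2 fold change of -0.85 (in edgeR, adjusted p = 0.000183). In Δblr-2 it was at 31.9, 39.9 and 35.4 CPM in light, against 51.0, 53.1 and 55.7 CPM in darkness, a log2 fold change of -0.59 (in edgeR, adjusted p = 0.000699). In WT it was at 25.0, 34.0 and 26.4 CPM in light, against 49.3, 73.5 and 60.1 CPM in darkness, a log2 fold change of -1.11 (in edgeR, adjusted p = 2.65e-06). In Δblr-1 it was at 60.7, 66.0 and 64.3 CPM in light, against 65.5, 70.8 and 73.0 CPM in darkness, a log2 fold change of -0.12 (in edgeR, adjusted p = 0.778). Its response differed between Δblr-1 and WT by 0.99 (edgeR adjusted p = 0.00188), between Δblr-2 and WT by 0.53 (edgeR adjusted p = 0.0384) and between Δenv-1 and WT by 0.26 (edgeR adjusted p = 1). This gene passed in WT, where none of the 4 members did. The sulfatase domain gene TRIATDRAFT_77440 was at or under 3.82 CPM in every library, and none of its light responses passed. In Δenv-1 its log2 fold change was -2.10 (in edgeR, adjusted p = 0.1). That response differed from the one of Δblr-2 by -3.05 (edgeR adjusted p = 0.029), and no other difference between its responses passed. These values rest on few counts, between 1 and 19 in the fitted Δenv-1 libraries.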

How the data were processed

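RNA was sequenced from mycelium of Δenv-1, Δblr-1, Δblr-2 and WT. The authors ran Kallisto against transcript models of the v2 genome of *T. atroviride* and deposited its estimated counts, neither normalized nor filtered. Of the values, 8.35% were not whole, and all were rounded. The 36 columns of the table include 12 that could not be matched to samples by name and were not used here. The labels call the replicates biological. No replicate pair agreed within sampling noise (lowest chi-square per degree of freedom 1.99). The 2 fitted Δenv-1 dark libraries differed far more, at 205, whereas pairs of the other groups reached at most 36.6. The dark library left out was at 94.3 from replicate 1 and at 552 from replicate 2. Every Δenv-1 light response is measured against this least consistent group.

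Genes were filtered with filterByExpr (minimum count 10), scaled by TMM and fitted with a mean per strain and treatment by edgeR 4.0.16 (R 4.3.3, quasi-likelihood, two-sided), with Benjamini-Hochberg adjustment over 9605 genes. A call needed an adjusted p no higher than 0.05 and a log2 fold change of 1 or more in size. Genes were also counted by the adjusted p alone, which is what "passed" means; differences between responses used the adjusted p alone. CPM are TMM-scaled over 24 libraries. The fit was also run on simulated counts with independent replicates and planted changes, and no result given here rests on that run. DESeq2 1.42.0 and the likelihood ratio test, which the study names, were alternatives, beside other scalings, filters, sample sets, replicate blocks and each library left out in turn. Intervals are 95%.

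The members and lists were chosen with earlier results of these data known, and 3 of the 16 comparisons were added later. Genes named are the members, the 3 most correlated with each, the pathway and marker genes, and TRIATDRAFT_256720, named after its counts were seen. Of the transcripts, 10686 matched the RefSeq gene table of strain P1, which has no product names, so a wider list of pathway genes was not analysed here. Replicate numbers come from the labels. Deviations of same-numbered light and dark libraries correlated over 0.1 in all pairs of WT (0.248, 0.591 and 0.411) and of Δblr-1 (0.128, 0.264 and 0.122). The numbers of these strains were taken to pair the samples. In WT, light replicate 1 with dark replicate 3 (0.217) and light replicate 3 with dark replicate 1 (0.266) correlated to a like extent. The pairing of these WT numbers is therefore uncertain.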

Additional observations from a re-analysis of the deposited data

Results flagged for a closer look

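The light responses of 3 of the 4 genes differed between strains by a direct test, 8 differences in all, given as log2 differences. Against WT, Δblr-2 responded by -0.75 in sulfite reductase and by 0.38 in phosphoserine phosphatase, where 19.5% of all genes differed. Against Δblr-1, Δblr-2 responded by -0.81 in sulfite reductase and by 0.52 in phosphoserine phosphatase, where 15.7% did. Δenv-1 responded by -0.46 in SHMT against Δblr-1, where 1.46% did. Against Δblr-2 it responded by -0.56 in SHMT, by -0.49 in phosphoserine phosphatase and by 0.64 in sulfite reductase, where 20.2% did. The comparisons among mutants were added after the data had been seen, and the phosphoserine phosphatase values share the uncertainty of its split reads. Those that involve Δenv-1 are not independent of how the study chose the genes.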

How the results depend on the processing

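Over the 64 member values (4 genes in 16 comparisons), 2216 alternative values were computed. Of these, 2140 kept their direction and their side of the adjusted p threshold. A further 39 no longer passed, 20 newly passed, 17 changed sign with neither value passing, and 0 changed sign with either value passing. The light responses of SHMT in Δenv-1 and of sulfite reductase and phosphoserine phosphatase in Δblr-2 passed in every alternative. No alternative changed how reads were split between phosphoserine phosphatase and its neighbour, so these fits do not bear on that uncertainty. Without the fold change minimum the members called were 1 rather than 0 for the Δenv-1 light response, 3 rather than 0 for that of Δblr-2, 1 each rather than 0 for Δenv-1 and for Δblr-1 against WT in light, and 2 each rather than 0 for Δblr-2 against WT in darkness and in light. For the Δblr-2 response against that of WT, 2 members were called, 1 with library totals only and 1 with the strains fitted alone, and between 1 and 3 with a library left out. Over all genes the calls were 1871 of 9605 in the main fit, 1613 of 9605 with library totals only and 1354 of 9322 with the strains fitted alone. With a library left out they ran from 1424 to 2198. For the Δenv-1 response against that of Δblr-1, 1 member was called, 0 with library totals only and 2 with the third Δenv-1 dark library, with or without the replicate block; the cause was not tested. Where a library left out leaves a single Δenv-1 dark library, that library is assumed to vary like the other groups. Depth limits the members most in Δblr-1 light replicate 1, the shallowest library, with 157 counts of phosphoserine phosphatase.

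With the replicate block, still no member passed in the light responses of WT and Δblr-1, whose numbers were taken to pair the samples. In Δenv-1 (0.174, 0.0753 and 0.0991) and Δblr-2 (0.0392, 0.145 and 0.0987) not every same-numbered pair correlated over 0.1. Their numbers were therefore not taken to pair the samples. Each same-numbered pair still correlated more than any pair of unequal number in its strain, so whether these samples were paired is not known. With the replicate block SHMT still passed in Δenv-1, and 3 members rather than 2 were called for the Δblr-2 response against that of WT. The calls over all genes in that comparison rose as well, from 1871 to 2254 of 9605. For Δenv-1 against WT in light, the block instead took equal numbers as shared by all strains, a link that was not checked. With it, 2 members rather than 1 passed, with sulfate adenylyltransferase gained.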
